A study of Homo sapiens with 4 samples.

Results

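The 38 genes described here encode endoplasmic reticulum (ER) chaperones, sensors and transcription factors of the unfolded protein response (UPR), and machinery that moves proteins into and out of the ER. They were chosen by name, among 58051 gene identifiers, for these known roles and with earlier results of these data known. Each was listed in both deposited tables. Proteins that enter the secretory pathway pass through the SEC61 channel, fold in the ER with the help of chaperones and disulphide isomerases, and leave in vesicles coated with COPII. Unfolded proteins in the ER activate the sensors IRE1 (encoded by ERN1), PERK and ATF6, and the transcription factors XBP1 and ATF6 then induce chaperone and degradation genes. Secretory epithelia and matrix-producing cells depend on this machinery for their output.

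The cells were MCF10A, a human breast epithelial line that does not form tumours, and poly(A) RNA was sequenced 48 h after transfection. The siLMNA group (2 libraries) received 50 nM of an siRNA against LMNA, which encodes lamins A and C of the nuclear lamina. The siLacZ group (2 libraries) received 50 nM of a non-targeting siRNA against the bacterial gene LacZ. Both groups shared the lipid reagent RNAiMAX, a medium change at 6 h and a medium with hydrocortisone, insulin, epidermal growth factor and cholera toxin. The labels do not say whether replicate libraries stem from separate cultures. The p-values therefore reflect only the spread among these 4 samples, which may be technical.

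The knockdown was visible in both siLMNA libraries. LMNA stood at 61.1 and 58.1 CPM (read counts divided by the library total and its TMM scaling factor) in the siLMNA libraries, against 480 and 524 CPM in the siLacZ libraries. Library totals were 44236621 to 44472819 counts in siLMNA and 42809595 to 46191091 counts in siLacZ. Of 8 epithelial markers 4 rose and 2 fell, with summed levels of 22870 to 24100 CPM in siLMNA and 14760 to 15430 CPM in siLacZ. The rises were in KRT17 (mean 6795 CPM in siLMNA, 1698 CPM in siLacZ), LAMA3 (6750 and 1403 CPM), ITGA6 and TP63. The falls were in KRT14 (2534 and 4714 CPM) and EPCAM (52.2 and 84.7 CPM), while KRT5 and KRT18 did not pass. Of 6 endothelial markers 4 were tested, of which 2 rose and 0 fell (summed levels of 14.9 to 15.5 CPM in siLMNA and 11.9 to 12.4 CPM in siLacZ). Of 6 leukocyte markers CD14 alone passed the filter and rose (sums of 27.95 to 33.9 CPM in siLMNA and 25.2 to 25.6 CPM in siLacZ), and CD3E had 0 counts. Of 6 plasma cell markers PRDM1 rose and SDC1 fell (sums of 267 to 275 CPM in siLMNA and 397 to 420 CPM in siLacZ), and JCHAIN and IRF4 had 0 counts. Of 9 fibroblast markers 5 were tested, of which 4 rose, 0 fell and PDGFRB did not pass. Summed levels of the 9 were 766 to 767 CPM in siLMNA and 175 to 178 CPM in siLacZ. The 4 that rose were DCN (629 and 639 CPM in siLMNA, against 160 and 163 CPM in siLacZ), COL1A1 (130 and 122 CPM in siLMNA, against 12.96 and 12.7 CPM in siLacZ), LUM (5.15 and 5.72 CPM in siLMNA, against 1.39 and 1.16 CPM in siLacZ) and PDGFRA, which stayed below 1 CPM. The fibrillar collagen gene COL3A1 had 0 counts in every library, and COL1A2 had 10 and 20 counts in siLMNA and 0 in siLacZ. The part of these markers in the results was not tested.

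Most of the 38 chosen genes rose after LMNA siRNA, and most of the rises were modest. Enough counts for a test were present for 37 of the 38: 27 rose, 2 fell and 8 did not pass, while 54.3% of all tested genes passed in either direction (edgeR quasi-likelihood test, adjusted p under 0.05 over all tested genes). Those that rose were 73% of the tested members, whereas 26.5% of all 18540 tested genes rose. The 2 falls, CANX and SERP1, were 5.41% of the tested members, beside 27.8% of all tested genes. The median log2 fold change was 0.41 over the tested members and -0.01 over all tested genes. The members were chosen with earlier results of these data known, so such contrasts are a description. The sizes were close to those of all tested genes, but larger than those of the 103 tested other genes of the pathway described below. The median absolute log2 fold change was 0.45 for the members, 0.46 for all tested genes and 0.24 for those other genes. A single member, the KDEL receptor gene KDELR3, rose by at least 2-fold, which is 2.7% of the tested members, while 11.3% of all tested genes passed and rose that far. No member fell that far, beside 7.15% of all tested genes. Against a minimum change of 1.5-fold, 8 members rose (21.6%, beside 11.4% of all tested genes) and 1 fell (2.7%, beside 9.36%). In bulk RNA, a change in every cell and a change in a part of the cells cannot be told apart.

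**Figure D1:**
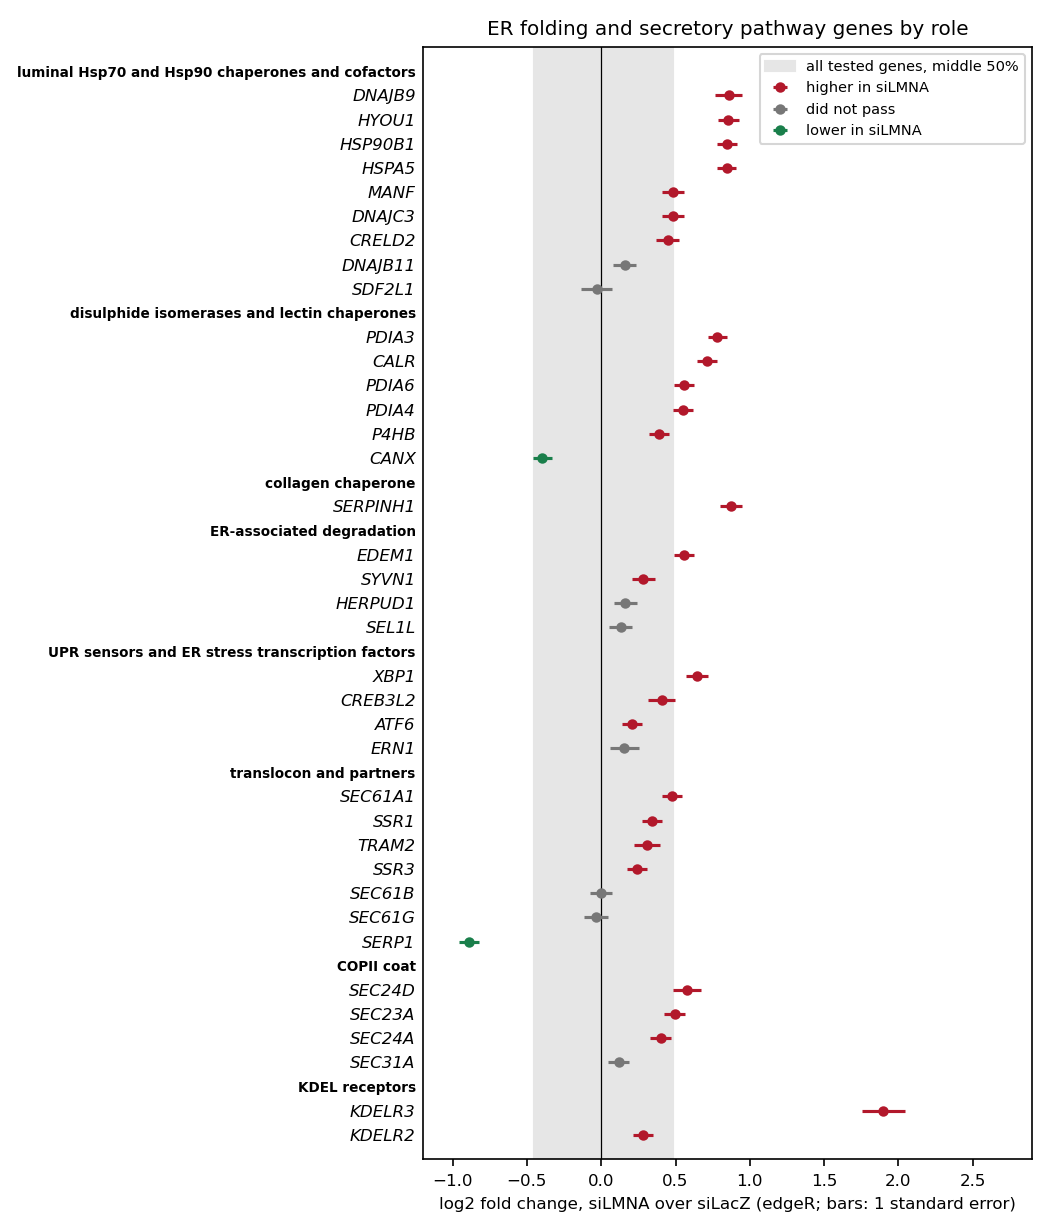
Log2 fold change of the 37 tested genes, siLMNA over siLacZ, sorted within 8 roles; points are edgeR estimates, bars 1 standard error, and the grey band is the middle 50% of all tested genes. KDELR3 lies farthest right at 1.90, and SERP1 farthest left at -0.89.

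Summed over the 38 genes, the level was 9933 and 9901 CPM in the siLMNA libraries, against 7231 and 7378 CPM in the siLacZ libraries. The genes took 0.954% and 0.962% of all counts in siLMNA, and 0.755% and 0.755% in siLacZ. The groups did not overlap for most of the 38 members, nor for 76% of all tested genes. In 31 members (81.6%) both siLMNA libraries lay above both siLacZ libraries, beside 37.3% of all tested genes. In 2 members (5.26%) both siLMNA libraries lay below, beside 38.8% of all tested genes. The 31 include CREB3L1, which had too few counts for the test.

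The promoters of 11 of these genes hold an exact copy of the ER stress response element (ERSE) or of its variant ERSE-II, the sites through which ATF6 and XBP1 are known to act. The 250 bases upstream of each RefSeq start were searched on both strands for ERSE, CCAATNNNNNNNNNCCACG, and for ERSE-II, which is ATTGG, 1 base of any kind and CCACG, and no member held both. ERSE was found in 26 of 35116 RefSeq promoter windows (0.074%), or 25 of 27305 genes (0.0916%), and ERSE-II in 18 windows (0.0513%), or 18 genes (0.0659%). Of the 35 members in the RefSeq table (all but PDIA3, KDELR2 and SEC24D), 8 held ERSE (22.9%) and 3 held ERSE-II (8.57%). The members were picked for their part in ER stress, so this count is a description. Of the 24 searched members that rose, 7 held an element (HSPA5, HYOU1, HSP90B1, CRELD2, PDIA6, CALR and XBP1). Both members that fell, CANX and SERP1, held one, as did 2 of the 8 that did not pass, SDF2L1 and HERPUD1. A match is a run of letters and not a shown binding site.
The following sequences show the element in members of each outcome, on the gene's strand with 5 flanking bases on either side. Capitals mark the match, which reads as the reverse complement where noted.
HSPA5 (rose; GRCh38.p14 chr9:125241386-125241414, minus strand): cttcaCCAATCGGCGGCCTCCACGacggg
HSP90B1 (rose; chr12:103930211-103930239, plus strand): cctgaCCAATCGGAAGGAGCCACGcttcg
HSP90B1 (second copy, reverse complement; chr12:103930316-103930344, plus strand): gggtgCGTGGTGCGGCGCGATTGGtgggt
CALR (rose; reverse complement; chr19:12938379-12938407, plus strand): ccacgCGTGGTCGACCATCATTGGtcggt
XBP1 (rose; chr22:28800598-28800626, minus strand): gctggCCAATCGCGGAGGGCCACGaccgt
CANX (fell; chr5:179698773-179698801, plus strand): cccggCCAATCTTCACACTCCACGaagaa
SERP1 (fell; reverse complement; chr3:150546705-150546733, minus strand): tcatgCGTGGAGACAGCGAATTGGtgttt
SDF2L1 (did not pass; ERSE-II, reverse complement; chr22:21642109-21642129, plus strand): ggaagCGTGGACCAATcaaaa
HERPUD1 (did not pass; ERSE-II; chr16:56932020-56932040, plus strand): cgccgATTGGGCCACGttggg
Only exact matches were kept, so the CANX and SERP1 copies share their fixed letters with the HSPA5 copy by construction. The distances of these copies from the start differ. The element begins 66 bases upstream of the start in HSPA5, 151 in CANX and 232 in SERP1. In CALR, which rose, it begins 225 bases upstream. Whether distance matters, and which start these cells use, was not tested. The printed bases of HSP90B1, CANX and SERP1 lie within GENCODE 29 exons of those genes.

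The lumenal Hsp70 and Hsp90 chaperones and their cofactors rose in 7 of 9 cases, and 2 did not pass. HSPA5 (ENSG00000044574), known as BiP or GRP78, is the main Hsp70 of the ER and holds the UPR sensors inactive. It was at 1151 and 1109 CPM in the siLMNA libraries, against 618 and 640 CPM in the siLacZ libraries. This was a log2 fold change of 0.84 (SE 0.065, 2 libraries a group; edgeR adjusted p = 6.29e-09), and the groups were well apart. HSP90B1 (GRP94), the Hsp90 of the ER that folds integrins and Toll-like receptors, was at 1510 and 1554 CPM in siLMNA and 887.5 and 815.5 CPM in siLacZ, with a log2 fold change of 0.85 (SE 0.067). HYOU1, a large Hsp70-like protein that acts as a nucleotide exchange factor for BiP, was at 296 and 286 CPM in siLMNA and 153 and 168 CPM in siLacZ (log2 fold change 0.86, SE 0.071). The log2 fold changes of these chaperones, which act together, lay within 1 SE of each other.

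DNAJB9 (ERdj4), a J-domain cofactor of BiP that represses IRE1, was at 25.2 and 25.9 CPM in siLMNA and 14.4 and 13.8 CPM in siLacZ. Its log2 fold change was 0.86 (SE 0.093; edgeR adjusted p = 4.70e-07). Its exons overlap those of THAP5 and PNPLA8 on the opposite strand by 183 and 99 bases. Both of these fell, with log2 fold changes of -0.50 for THAP5 and -0.60 for PNPLA8. What reads from the shared bases add to the DNAJB9 counts was not tested. DNAJC3 (p58IPK), a J-domain cofactor and inhibitor of PERK, MANF, a secreted ER stress protein, and CRELD2, an ER stress-inducible protein, rose less. Their log2 fold changes were 0.48 for DNAJC3, 0.48 for MANF and 0.45 for CRELD2 (SE 0.073 to 0.076).

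DNAJB11 (ERdj3), a J-domain cofactor that binds unfolded substrates, and SDF2L1, its partner, did not pass. DNAJB11 was at 42.1 and 40.7 CPM in siLMNA and 36.8 and 37.5 CPM in siLacZ (log2 fold change 0.16, SE 0.077; edgeR adjusted p = 0.0947). SDF2L1 was at 16.2 and 18.2 CPM in siLMNA and 16.5 and 18.6 CPM in siLacZ (log2 fold change -0.03, SE 0.10), so that its groups overlapped. DNAJB11 passed with upper-quartile factors (adjusted p = 0.0182) and among genes of at least 1 CPM in 2 libraries (adjusted p = 0.0408).

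**Figure D2:**
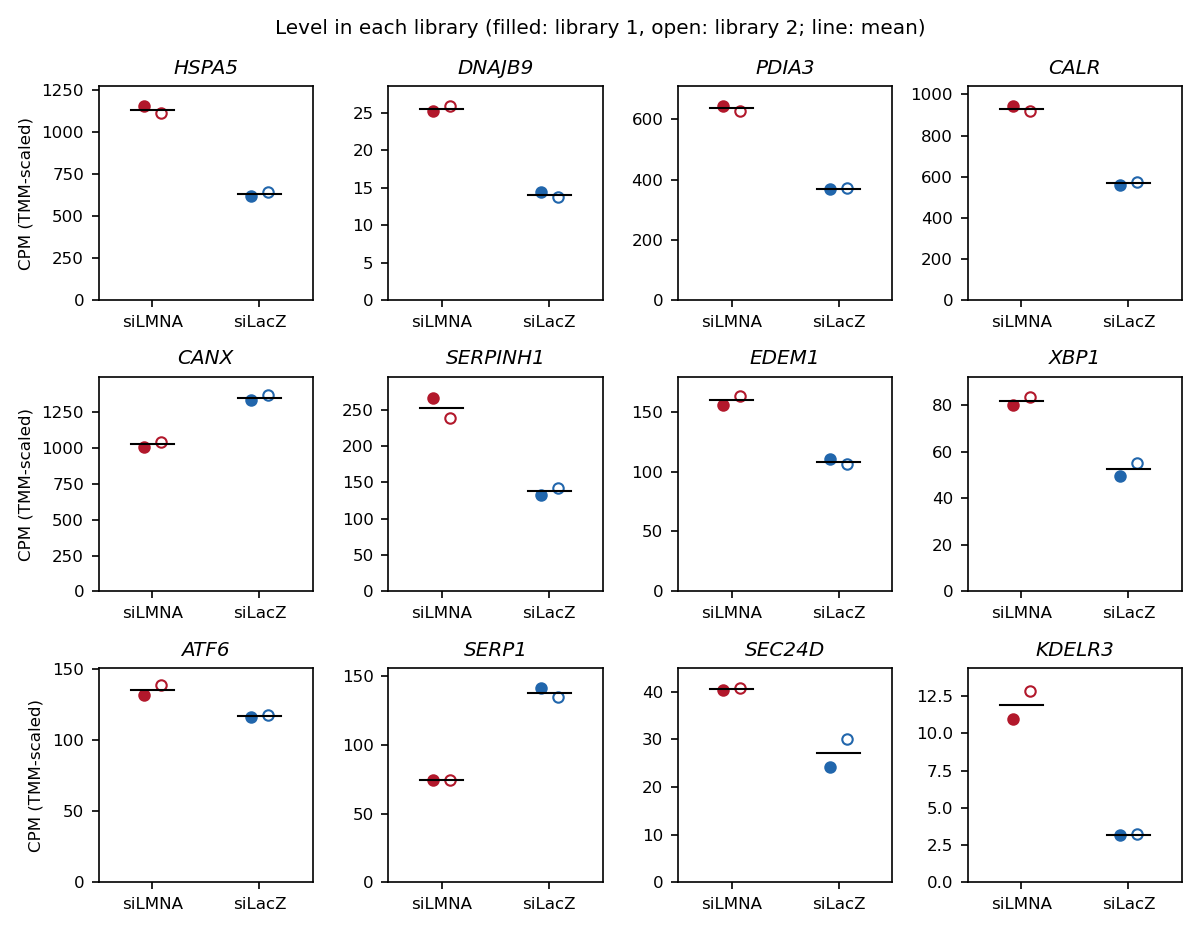
CPM (TMM-scaled, linear axis from 0) of 12 genes in each of the 4 libraries; filled points are library 1 of a group, open points library 2, and lines are means of 2. In CANX and SERP1 both siLMNA libraries lie below both siLacZ libraries, and in the other genes shown both lie above.

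Among the disulphide isomerases and lectin chaperones 5 of 6 rose and 1 fell. PDIA3 (ERp57), the isomerase that works with calnexin and calreticulin on glycoproteins, was at 644 and 629 CPM in siLMNA and 370 and 371 CPM in siLacZ (log2 fold change 0.78, SE 0.065; edgeR adjusted p = 1.70e-08). The general isomerases PDIA6, PDIA4 and P4HB had log2 fold changes of 0.56 (SE 0.066), 0.55 (SE 0.068) and 0.39 (SE 0.069). P4HB is also the beta subunit of collagen prolyl 4-hydroxylase.

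The lectin chaperones, which hold monoglucosylated glycoproteins in the folding cycle, moved apart. CALR, the soluble calreticulin, was at 944 and 917 CPM in siLMNA and 559 and 577 CPM in siLacZ (log2 fold change 0.71, SE 0.065; edgeR adjusted p = 5.16e-08). CANX, the membrane-bound calnexin, was at 1009 and 1045 CPM in siLMNA and 1334 and 1368 CPM in siLacZ (log2 fold change -0.40, SE 0.064; edgeR adjusted p = 4.43e-05). Within a library, the level of CALR over that of CANX, per kilobase of exon, was 2.15 and 2.02 in siLMNA and 0.964 and 0.969 in siLacZ. This ratio does not depend on the scaling between libraries, and it differed by 1.11 on the log2 scale. With 2 libraries a group, a permutation test of 1 ratio cannot reach 0.05, so none is given; the pair was singled out after its values were seen, as was SEC23A with SEC23B.

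SERPINH1 (HSP47), the chaperone specific to procollagen, had one of the larger rises. It was at 267 and 238 CPM in siLMNA and 133 and 142.5 CPM in siLacZ (log2 fold change 0.87, SE 0.075; edgeR adjusted p = 2.50e-08). The collagen gene COL1A1, counted above among the fibroblast markers, had a log2 fold change of 3.29 (SE 0.082). The fold of SERPINH1 was therefore much smaller than that of this client.

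Of the 4 genes of ER-associated degradation, the route by which misfolded proteins are sent to the proteasome, 2 rose. EDEM1, which helps to select misfolded glycoproteins, was at 156 and 163 CPM in siLMNA and 110 and 107 CPM in siLacZ (log2 fold change 0.56, SE 0.069; edgeR adjusted p = 2.52e-06). SYVN1 (HRD1), the ubiquitin ligase of this route, was at 62.1 and 56.3 CPM in siLMNA and 47.3 and 50.1 CPM in siLacZ (log2 fold change 0.28, SE 0.078; edgeR adjusted p = 0.00535). The SYVN1 call was lost without siLMNA 1 (adjusted p = 0.0742), without siLacZ 1 (0.138) or without siLacZ 2 (0.0753). Its exons overlap those of FAU on the same strand by 398 bases; FAU had more reads than SYVN1 in every library and fell (log2 fold change -0.57). They also overlap those of MRPL49 on the opposite strand by 356 bases (log2 fold change -0.04, not passed).

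SEL1L, the partner of SYVN1, and HERPUD1, a membrane component of the same complex, did not pass. SEL1L was at 100.3 and 117 CPM in siLMNA and 100.9 and 97.9 CPM in siLacZ, and the groups overlapped (log2 fold change 0.13, SE 0.079). It passed with upper-quartile factors (edgeR adjusted p = 0.0406) and without siLMNA 1 (0.0293). HERPUD1 was at 40.6 and 42.4 CPM in siLMNA and 37.7 and 36.5 CPM in siLacZ (log2 fold change 0.16, SE 0.077; edgeR adjusted p = 0.0869), and passed with upper-quartile factors (0.0174) and among genes of at least 1 CPM in 2 libraries (0.0380).

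Of the 5 sensors and transcription factors 3 rose, 1 did not pass and 1 was not tested. XBP1, the transcription factor whose mRNA is spliced by IRE1, was at 80.1 and 83.4 CPM in siLMNA and 49.4 and 55.2 CPM in siLacZ (log2 fold change 0.64, SE 0.077; edgeR adjusted p = 1.52e-06). Counts per gene do not separate its spliced from its unspliced form. ERN1, the gene of IRE1 itself, was at 24.7 and 20.9 CPM in siLMNA and 20.0 and 21.0 CPM in siLacZ (log2 fold change 0.16, SE 0.098; edgeR adjusted p = 0.198), and the groups overlapped.

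ATF6, the sensor that is cleaved in the Golgi to release a transcription factor, was at 131 and 138 CPM in siLMNA and 116 and 117 CPM in siLacZ (log2 fold change 0.21, SE 0.069; edgeR adjusted p = 0.0176). The call on ATF6 was lost without siLMNA 2 (adjusted p = 0.140), without siLacZ 1 (0.131) or without siLacZ 2 (0.0908). CREB3L2, a related factor cleaved in the same way, which regulates SEC23A in mouse cartilage, was at 49.1 and 47.1 CPM in siLMNA and 32.6 and 40.01 CPM in siLacZ (log2 fold change 0.41, SE 0.091; edgeR adjusted p = 0.00110). It did not pass without siLacZ 1 (log2 fold change 0.25; adjusted p = 0.0750). CREB3L1, a factor of the same family that induces a collagen gene in mouse bone, had 9 and 22 counts in siLMNA and 6 and 0 in siLacZ, too few to pass the low-count filter. It entered the test in some of the other settings: it was called higher without siLMNA 1 (edgeR adjusted p = 0.0200) and did not pass without siLacZ 1 (0.0588), without siLacZ 2 (0.298), with no low-count filter (0.115) or with DESeq2 (0.153).

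The 7 translocon genes comprised 4 that rose, 1 that fell and 2 that did not pass. SEC61A1, the channel-forming subunit, was at 607 and 576 CPM in siLMNA and 409 and 441 CPM in siLacZ (log2 fold change 0.48, SE 0.068; edgeR adjusted p = 1.24e-05). The small subunits SEC61B and SEC61G did not pass and overlapped between groups, at log2 fold changes of 0.00 (SE 0.074) for SEC61B and -0.03 (SE 0.081) for SEC61G. SSR1 and SSR3, subunits of the translocon-associated protein complex, rose by 0.34 (SE 0.067) and 0.24 (SE 0.067) on the log2 scale. SSR1 was at 244 and 254.5 CPM in siLMNA and 199 and 195 CPM in siLacZ.

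TRAM2, a translocon partner tied to collagen synthesis, was at 38.1 and 34.5 CPM in siLMNA and 27.3 and 31.3 CPM in siLacZ (log2 fold change 0.31, SE 0.090; edgeR adjusted p = 0.00740). Its call was lost without siLMNA 1 (adjusted p = 0.0669), without siLacZ 1 (0.186) or without siLacZ 2 (0.0543). The exons of SEC61A1 overlap those of RUVBL1 on the opposite strand by 344 bases, and RUVBL1 had a log2 fold change of -0.87.

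SERP1 (RAMP4), a small stress-associated protein that binds the SEC61 channel, had the larger of the falls. It was at 74.5 and 74.2 CPM in siLMNA and 141 and 135 CPM in siLacZ (log2 fold change -0.89, SE 0.070; edgeR adjusted p = 9.01e-09). EIF2A, which shares 153 exon bases with SERP1 on the opposite strand, had a log2 fold change of -0.81, while SELENOT, which shares 61 bases, had one of -0.13. The use of strand in counting is not given in the sources used here, so reads from the shared bases cannot be told apart.

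Of the 4 COPII coat genes 3 rose and 1 did not pass. SEC24D, a cargo-binding subunit needed for procollagen export in zebrafish, was at 40.4 and 40.8 CPM in siLMNA and 24.3 and 30.0 CPM in siLacZ (log2 fold change 0.58, SE 0.095; edgeR adjusted p = 5.26e-05). SEC23A, of the inner coat, was at 139 and 151 CPM in siLMNA and 103 and 103 CPM in siLacZ (log2 fold change 0.50, SE 0.072). SEC24A, another cargo-binding subunit, had a log2 fold change of 0.40 (SE 0.072). Its exons share 385 bases with SAR1B on the opposite strand. SEC31A, of the outer coat, had 0.12 (SE 0.070; edgeR adjusted p = 0.172), and passed with upper-quartile factors (0.0267).

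The KDEL receptors, which return escaped ER chaperones from the Golgi, included the largest change of all members. KDELR3 (ENSG00000100196) lies on chromosome 22 of hg38 in GENCODE 29, from base 38468062 to base 38483447 on the plus strand. Its level was 11 and 12.8 CPM in siLMNA, from 470 and 552 counts, and 3.18 and 3.22 CPM in siLacZ, from 142 and 152 counts. The log2 fold change was 1.90 (SE 0.14; edgeR adjusted p = 5.72e-09), a 3.73-fold rise. Its exons share 8 bases with DDX17 on the opposite strand, which has far more reads and had a log2 fold change of -0.29. KDELR2 was at 187 and 188 CPM in siLMNA and 153 and 156.5 CPM in siLacZ, a log2 fold change of 0.28 (SE 0.067; edgeR adjusted p = 0.00189). KDELR1, listed among the other genes of the pathway, did not pass (log2 fold change 0.11, SE 0.070). Per kilobase of exon, KDELR3 made up 4.38% and 5.28% of the summed level of the receptors in siLMNA and 1.53% and 1.49% in siLacZ, so that KDELR1 and KDELR2 still held most of it.

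**Figure D3:**
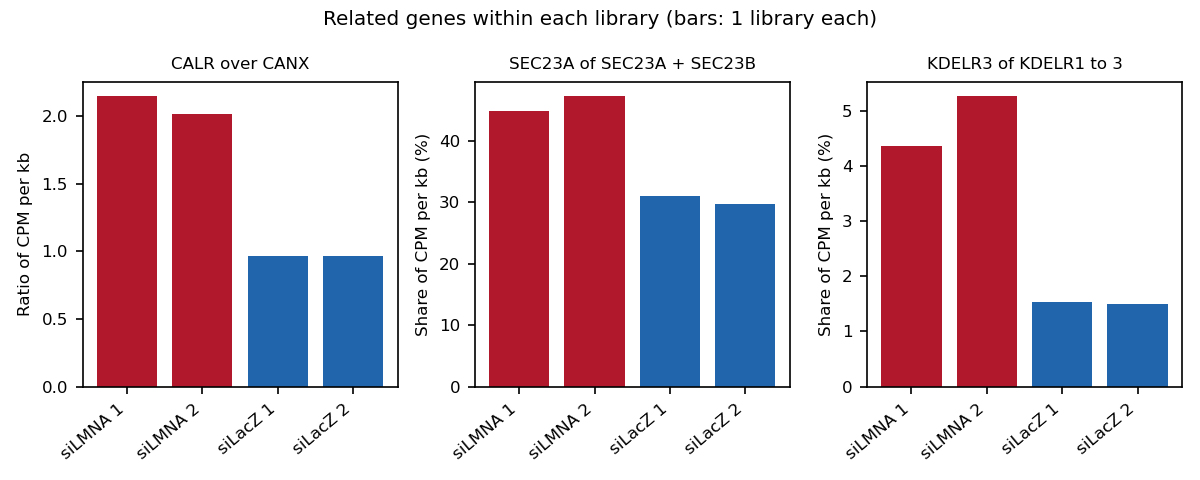
Related genes compared within each library, from CPM per kilobase of exon (1 bar per library, axes from 0): the ratio of CALR to CANX, the share of SEC23A in SEC23A plus SEC23B, and the share of KDELR3 in KDELR1 to KDELR3. All 3 measures are higher in both siLMNA libraries than in both siLacZ libraries.

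Per kilobase of exon, the most abundant members in siLMNA were CALR, HSP90B1 and HSPA5, with mean levels of 343, 326 and 289 CPM per kilobase, followed by CANX at 165 and PDIA3 at 150. In siLacZ, CANX came first at 217 CPM per kilobase, before CALR at 209, HSP90B1 at 181, HSPA5 at 161 and SEC61A1 at 90.5. The lowest tested member was ERN1, at 2.10 CPM per kilobase in siLMNA, and in siLacZ it was KDELR3, at 1.66.

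Other genes of the pathway were called about as often as genes in general. Of 106 further genes of folding, degradation, stress sensing, translocation, COPII and COPI, listed by role, 103 were tested, of which 30 rose, 26 fell and 47 did not pass. These were 29.1% rises and 25.2% falls, 54.4% in either direction, beside 26.5%, 27.8% and 54.3% of all tested genes. Their median log2 fold change was 0.05, against 0.41 for the 37 tested members and -0.01 for all genes. The members were picked with results of these libraries known, so the difference between the lists is a description. The calls were 53.6% rises by TMM, and 67.2% rises (41 against 20) with upper-quartile factors. Over all tested genes the calls were 48.8% rises by TMM and 54.7% (5518 against 4575) with upper-quartile factors. Without siLacZ 1, 18 rose and 13 fell, and without siLacZ 2, 17 rose and 10 fell.

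**Figure D4:**
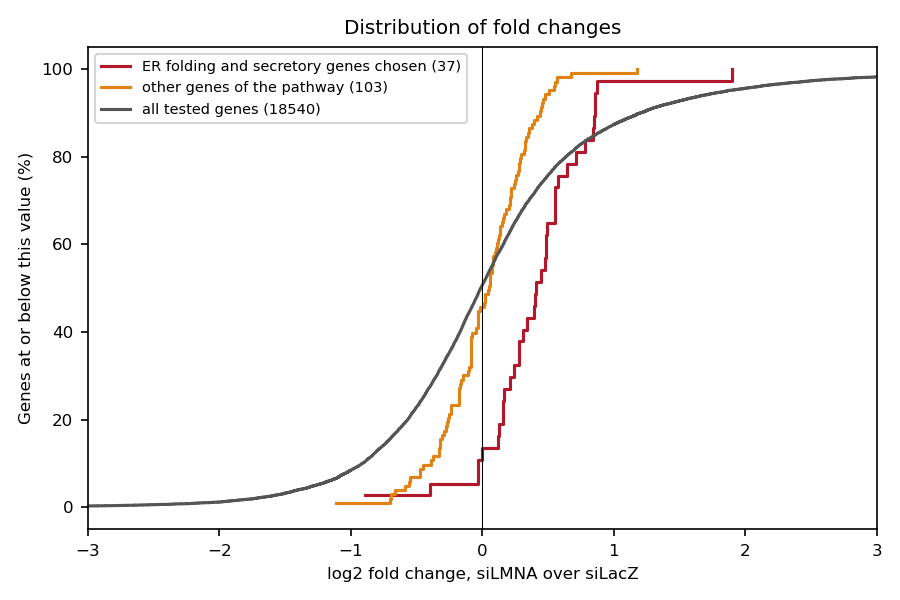
Cumulative share of genes (%) by log2 fold change, siLMNA over siLacZ, for the 37 tested members, the 103 tested other genes of the pathway and all 18540 tested genes (axis limited to -3 to 3). The members' curve starts at -0.89 (SERP1) and reaches its median at 0.41, and that of the other genes reaches its median at 0.05.

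Among 22 other folding enzymes 4 rose and 8 fell. UGGT2, a glycoprotein folding sensor, and PDIA5, an isomerase, had log2 fold changes of 0.55 and 0.51. FKBP10, a prolyl isomerase that acts on collagen, and TMX1, a membrane-bound isomerase, had -0.70 and -0.59. FKBP10 thus moved against SERPINH1, its fellow collagen chaperone. Of 15 tested genes of degradation 7 rose and 5 fell, among them HERPUD2 at 0.55, the lipid droplet and degradation factor AUP1 at -0.66 and EDEM2 at -0.33.

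Of 10 tested UPR sensors and effectors 4 rose and 2 fell. PPP1R15A (GADD34), which directs the dephosphorylation of eIF2alpha, was at 35.2 and 32.5 CPM in siLMNA and 15.95 and 13.9 CPM in siLacZ (log2 fold change 1.18, SE 0.095; edgeR adjusted p = 1.20e-08). ATF4, the transcription factor downstream of PERK, had a log2 fold change of 0.22 (SE 0.066). MBTPS1, the site 1 protease that cleaves ATF6, fell (log2 fold change -0.70, SE 0.070), as did TRIB3, a pseudokinase induced by ATF4 (-0.33, SE 0.075). DDIT3 (CHOP), the factor most tied to ER stress death, did not pass, at 3.56 and 3.28 CPM in siLMNA and 2.82 and 2.43 CPM in siLacZ (edgeR adjusted p = 0.120). EIF2AK3, the gene of PERK, did not pass either (log2 fold change 0.21, SE 0.10). DDIT3, EIF2AK3 and KDELR1 were singled out after their values were seen.

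Of 25 genes of the translocon, signal peptidase and oligosaccharyltransferase 6 rose and 7 fell. SPCS1, a signal peptidase subunit, was at 38.9 and 39.2 CPM in siLMNA and 82.7 and 86.0 CPM in siLacZ (log2 fold change -1.11, SE 0.073; edgeR adjusted p = 9.28e-10). SRP72, of the signal recognition particle, had a log2 fold change of -0.55. DAD1, an oligosaccharyltransferase subunit, had 0.42, and SEC61A2, whose reads may be shared with its near copy SEC61A1, had 0.46.

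Of 21 tested COPII and ER exit genes 6 rose and 3 fell. SAR1A, the small GTPase that starts coat assembly, had a log2 fold change of 0.57 and the cargo receptor gene TMED9 one of 0.46. SEC23B and the lectin cargo receptor gene LMAN1 had -0.48 and -0.29. The inner coat paralogs therefore moved apart: SEC23A made up 44.8% and 47.3% of the level of SEC23A and SEC23B per kilobase in siLMNA, and 31.0% and 29.7% in siLacZ. Of the 10 genes of KDELR1 and the COPI coat, which carries cargo back to the ER, 3 rose and 1 fell, among them ARCN1 (0.33), COPA (0.29) and COPZ1 (-0.56).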

How the data were processed

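The authors deposited 2 tables, each with 1 siLMNA and 1 siLacZ library of MCF10A cells. Per the file headers these hold raw read counts per gene, the values tested here. Reads were assigned to hg38 per the submitters' processing notes, and the aligner, counter, annotation and strandedness were not given in the sources used here. Deposited normalized counts (a signal, each count multiplied by its library's factor), the deposited log2 fold change, and its deposited standard error and test statistic (scores) were used only to check the rows (relative tolerance 1e-06). The genes CDH1, TWIST1, ZEB1, CLDN1, OCLN and CCNB1, 6 in all, failed for their counts and were left out of totals and tests; none is a member. Of the columns, 3 without a name were not used.

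Counts of all 4 libraries were fitted with edgeR 4.0.16 (R 4.3.3; TMM, filterByExpr, group as the only term, quasi-likelihood test, Benjamini-Hochberg over 18540 genes at 0.05); the script was tested on simulated data. The SE is the log2 fold change over the square root of F. A count of 0 allows up to 3 counts, 0.0635 to 0.0702 CPM, for counting error only. Levels per kilobase use merged exons of GENCODE 29. DESeq2 1.42.0, other factors and filters, a replicate block and runs without each library were alternatives. Members and lists were chosen with earlier results of these data known. Values per library were given for members that passed with at least 2-fold change, the sensors, HSPA5, the largest change in each role and others the text compares; of the further pathway genes, the largest 2 rises and 2 falls per group were named, except where a gene is not reported here. The protein sequences planned were not used here.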

Additional observations from a re-analysis of the deposited data

How the results depend on the processing

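The counts of members that rose and fell stayed at 27 and 2 with RLE factors, DESeq2, no low-count filter, the contradicting genes kept in, and the replicate number as a block. With upper-quartile factors 31 members rose (5518 of all tested genes rose and 4575 fell). Among genes of at least 1 CPM in 2 libraries 29 members rose (4628 of all tested genes rose and 4754 fell), with 2 members fallen in both settings. Leaving out 1 library gave 23 to 27 rises and 2 falls. Against a change of 1.5-fold, 8 members rose (HSPA5, HYOU1, HSP90B1, DNAJB9, PDIA3, CALR, SERPINH1 and KDELR3) and SERP1 alone fell, so 1 in all; of the other genes of the pathway 1 rose and 1 fell, and over all tested genes 2111 rose and 1735 fell. That alternative asks for a larger change by construction. The members' median log2 fold change was 0.41, 0.48 with upper-quartile factors, and 0.39 to 0.49 without 1 library, the highest without siLacZ 2; the cause was not tested. Without 1 library, 3182 to 4283 genes rose and 3121 to 4696 fell over all genes, and 17 to 27 rose and 10 to 24 fell among the other genes of the pathway; the lowest counts came without siLacZ 2, and such runs have fewer samples, with the lone library of a group assumed to vary like the other group.

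Over the 37 tested members, 407 of the recomputed values kept their side of the threshold, 30 lost a call, 20 of them against 1.5-fold, and 7 gained one; CREB3L1 comes on top, called without siLMNA 1 and in no other setting that tested it, and it enters the member counts and medians there. No called member reversed its sign in any alternative run. There were 2 libraries a group, and each deposited table sets libraries of the same number side by side. No label says that these share a culture, day or batch. Deviations of same-numbered libraries had a correlation of r = -0.03 across 18540 genes. With the replicate block 4870 genes rose and 5093 fell, and no call on a member changed.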
